A study of Drosophila melanogaster with 2 samples.

Results

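The regions described here are the Drgx-eGFP peaks that lie between genes but close to one: gene-proximal intergenic peaks. A pooled peak was kept when its summit lay in no annotated gene, more than 500 bp from every transcription start site (TSS) of any gene, and at most 5000 bp from the nearest TSS of a protein-coding gene. The rule used position alone, and it kept 691 of the 8443 peaks of the pooled list (8.18%). The samples are whole embryos of *Drosophila melanogaster* at an age of 1 day, from the transgenic strain Drgx-GFP, which makes the transcription factor Drgx with an eGFP tag. Their chromatin was profiled by immunoprecipitation and sequencing (ChIP-seq). The 2 biological replicates form a single group, and both carry the insertion, which is labelled as targeting Drgx. The description of the samples names an antibody against GFP, while their antibody field reads Drgx. The sources used here do not give the sequence that drives the transgene, and the control experiment that the labels name as possible was not analysed here. Peaks of whole embryos cannot be assigned to a tissue, and which of them come from the tagged protein was not tested.

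Drgx belongs to the paired-like homeodomain family, whose members bind AT-rich DNA around the core TAAT, singly or as dimers on inverted cores. The related mammalian gene DRGX is known for its role in sensory neurons of the dorsal root ganglia and the spinal cord. In the compact fly genome, the sequence between genes holds many enhancers, and those that lie a few kilobases from a promoter often act on the adjacent gene. A nearest gene is therefore a positional label and not a known target.

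The 6 strongest gene-proximal peaks, all found in both replicates, show what the DNA under these summits looks like. Each line gives the summit base and 50 bp on either side, from the plus strand of dm6, named by the nearest coding gene. Capitals mark TAAT or its reverse complement ATTA. The windows are chr2L:2202361-2202461 (CG31668), chr3L:10776518-10776618 (CG43245), chr3R:16222450-16222550 (tara), chrX:493948-494048 (CG17896), chr2L:4030596-4030696 (ed) and chrX:1277161-1277261 (Atf3).
CG31668: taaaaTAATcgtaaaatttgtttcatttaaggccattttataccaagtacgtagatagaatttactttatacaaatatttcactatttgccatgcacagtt
CG43245: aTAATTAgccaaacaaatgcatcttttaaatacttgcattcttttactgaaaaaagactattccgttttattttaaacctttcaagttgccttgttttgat
tara: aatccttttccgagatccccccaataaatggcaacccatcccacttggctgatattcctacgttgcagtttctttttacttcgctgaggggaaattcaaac
CG17896: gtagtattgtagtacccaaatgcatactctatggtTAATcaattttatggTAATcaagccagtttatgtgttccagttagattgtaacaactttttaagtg
ed: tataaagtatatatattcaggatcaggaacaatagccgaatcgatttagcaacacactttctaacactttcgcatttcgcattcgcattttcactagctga
Atf3: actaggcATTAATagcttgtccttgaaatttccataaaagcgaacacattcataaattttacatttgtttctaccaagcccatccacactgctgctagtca
Cores are few and unevenly spread among them: 2 each at CG43245, CG17896 and Atf3, 1 at CG31668 and 0 at tara and ed. The palindrome TAATTA occurs at CG43245 and in none of the other windows of this set. The windows of CG31668 and CG43245 held 25.7% and 26.7% G and C, and the window of tara held 44.6%.

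A paired-type homeodomain dimer can recognise TAAT and ATTA separated by a few bases. For contrast, a pair of members that hold TAAT and ATTA with a gap of 3 bases is printed in the same way. They were chosen after their values were seen. The windows are chr2L:4333061-4333161 (Atet, an ABC transporter gene) and chr3R:16497581-16497681 (Gr89a, a gustatory receptor gene).
Atet: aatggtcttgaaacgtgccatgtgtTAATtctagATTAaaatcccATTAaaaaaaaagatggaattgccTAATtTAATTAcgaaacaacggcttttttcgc
Gr89a: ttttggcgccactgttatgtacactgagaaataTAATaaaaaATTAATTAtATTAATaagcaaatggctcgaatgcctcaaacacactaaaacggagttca
Each of these windows held 6 cores and also TAATTA, which shares bases with the spaced pair in both. At Atet, pooled signal was 458, with 255 for replicate 1 and 183 for replicate 2. At Gr89a, pooled signal was 235, with 90.8 for replicate 1 and 133 for replicate 2. Signal is the authors' value for each peak, on a scale that the sources used here do not state, so it ranks peaks within a list and is not compared between lists.

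The strongest gene-proximal peak of the pooled list lay at 2L:2202194-2202877, 3755 bp after the start of CG31668 and beyond the end of that gene. Its signal was 2157 in the pooled list, where it ranked 5 of 8443, with 1339 in replicate 1 and 800.5 in replicate 2. The peak of CG43245 followed, 4643 bp after the start of its nearest gene, with pooled signal of 1170, beside 602 for replicate 1 and 553 for replicate 2. The next was at tara, which encodes a transcriptional co-regulator of the trithorax group, 3151 bp before the coding start (1114 pooled, 657 in replicate 1, 443 in replicate 2). At CG17896 the summit lay 503 bp before the start (1061, 621 and 441 in the same order). Only these 4 members ranked among the 100 strongest peaks of the pooled list.

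The next strongest members included those nearest to ed, Atf3, ds and foxo. At ed, the gene of the immunoglobulin-type adhesion molecule Echinoid, the summit was 731 bp before the start, with pooled signal of 807, replicate 1 at 455 and replicate 2 at 348. At ds, which encodes the protocadherin Dachsous of the Fat pathway, it was 591 bp before the start (733 pooled, 435 in replicate 1, 296 in replicate 2). Atf3, a bZIP transcription factor gene, had its peak 1927 bp before the start (751, 429 and 327), and foxo, the forkhead factor gene of the insulin pathway, 3369 bp before (644, 371 and 270). All 4 had a partner in both replicates.

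The homeobox gene ct, which specifies external sensory organs, had a pair of members before its start. The farther, at 3756 bp, had pooled signal of 701, replicate 1 at 379 and replicate 2 at 288, and the nearer, at 2561 bp, had 211, 116 and 103. RasGAP1, a Ras GTPase-activating protein gene, had its member 670 bp before the start (652, 384 and 257). Fbxl7, an F-box protein gene, had its member 1319 bp before the start (596, 316 and 280). CycB, the cyclin B gene, had a member 3330 bp after its start (530, 288 and 229).

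The named set of 20 members is the 20 of highest pooled signal with a partner in both replicates, down to list rank 384. The remaining named members were nearest to CG43131 (659 in the pooled list), CG12643 (638), CG13676 (616), CG3149 (593), CG3847 (587), CG6168 (560) and CG13898, which had members of 541 and 535. The CG3149 peak ranked 595 in the list of replicate 1 and 145 in that of replicate 2. Of the 20, 16 lay before the nearest coding start and 4 after it. Over all members 78.9% lay before it. All 20 were present in the conservative list, against 79.3% of all members and 81.7% of all pooled peaks. The 20 were picked by signal and replicate support, so their presence there is no separate support. The nearest coding gene also had a promoter peak, meaning a summit within 500 bp of one of its own starts, for 4 of the 20. Over all members that share was 33.4%. TAATTA was present in 1 of the 20 windows, against 7.96% of all member windows. Of the 20, 11 held none of the 19 words searched.

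Gene-proximal peaks were denser close to the start and on its upstream side. In 12.6 Mb of sequence where a summit could meet the rule, there were 54.7 members per Mb, against 22.8 per Mb for the 544 distal intergenic peaks in their 23.8 Mb and 63.1 per Mb for all pooled peaks. Each replicate's own list gave the same order, with 40.3 members and 16.3 distal peaks per Mb in replicate 1 and 35.7 members and 14.2 distal peaks per Mb in replicate 2. Of the 691, 545 (78.9%) lay before the nearest coding start, at 62.2 per Mb, and 146 (21.1%) lay after it, at 37.7 per Mb. In replicate 1 these densities were 46.1 before and 27.3 after the start, and in replicate 2 they were 40.03 and 25.8. These densities describe the lists and no test was made on them. The sequence counted was not filtered for assembly gaps, repeats or transposable elements, where peaks may not be callable. What this adds to the difference between classes was not tested.

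Before the start, density was 86.7 peaks per Mb at 500 to 1000 bp, 71.3 at 1000 to 2000 bp, 46.2 at 2000 to 3000 bp, 48.8 at 3000 to 4000 bp and 48.7 at 4000 to 5000 bp. The decline ended at about 2000 bp, and the 3 farther bins of the pooled list were close to each other. Replicate 1 gave 65.7, 53.4, 31.5, 34.6 and 39.0 per Mb in the same bins, and replicate 2 gave 57.2, 43.2, 32.0, 31.2 and 31.7. After the start there was no such decline: the bins held 29.5, 33.6, 41.2, 43.4 and 33.5 per Mb, the first of them resting on 7 peaks in the pooled list and on 3 in each replicate's list. The median distance of a member was 1892 bp, with quartiles of 1066 and 3246 bp. For 104 members (15.1%) the nearest start of any gene belonged to a non-coding gene.

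**Figure D1:**
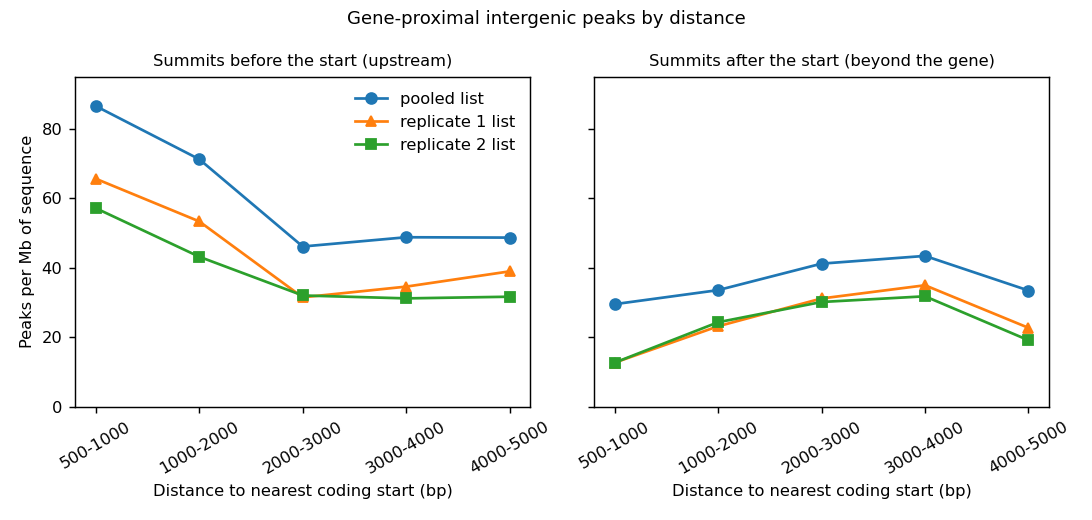
Density of gene-proximal intergenic peaks (peaks per Mb of sequence that meets the rule) by distance from the nearest coding start (bp), before and after the start, in the pooled list and in each replicate's own list. Before the start the pooled list stands at 86.7 per Mb nearest the start and at 46.2 per Mb at 2000 to 3000 bp, and both replicates are also higher in the first bin than in the third.

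Peaks next to the limits of the rule ranged widely in signal. Just inside the 500 bp limit were peaks at gem (502 bp, signal 171) and Dyro (502 bp, 208), and just outside it were a ph-d peak (495 bp, 73.6) and one 494 bp from a non-coding start whose nearest coding gene is CG13251 (128). Just inside 5000 bp were peaks of Gr93a (4994 bp, 16.1) and CG13481 (4976 bp, 108), and just outside it were peaks of tal-1A (5012 bp, 112) and 18w (5019 bp, 77.9). Across the 5 distance bins the median signal ran between 114 and 123.

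The type of intergenic gap also varied. Between genes that point away from each other there were 227 members (65.3 per Mb), between genes in the same direction 343 (51.3 per Mb), and between genes that point at each other 121 (49.3 per Mb). Gaps under 5000 bp held 308 members at 73.4 per Mb, gaps of 5000 to 10000 bp held 195 at 52.8, gaps of 10000 to 20000 bp held 129 at 43.4, and wider gaps held 59 at 33.1. Chromosome arm 3L carried 194 members, at 73.7 per Mb of eligible sequence, against 54.7 over all arms. Replicate 1 had 58.9 per Mb on 3L against 40.3 over all arms, and replicate 2 had 47.1 against 35.7. The other large arms held 46.6 per Mb on 2R, 46.7 on 2L, 50.2 on X and 55.0 on 3R, and chromosome 4 held 1 member.

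Signal in the gene-proximal class was close to that of the list as a whole. The median was 119 (quartiles 86.2 and 185), against 114.7 in the distal intergenic class and 120 over all pooled peaks. The lowest member had 2.05 and the highest 2157. In each replicate's own list the median of the members was 86.0 against 87.2 for the whole list in replicate 1, and 70.1 against 70.4 in replicate 2. Of the members, 160 (23.2%) were among the 2111 strongest peaks of the pooled list.

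Replicate support was near that of the list. Of the 691 members, 343 (49.6%, exact 95% interval 45.8 to 53.4) overlapped by at least 1 bp a thresholded peak of replicate 1 and also one of replicate 2. The share over all pooled peaks was 51.1%, and in the distal intergenic class it was 47.4% (43.2 to 51.7). Intervals cover counting error only, since neighbouring peaks are not independent. Replicate 1 held a partner for 489 members (70.8%) and replicate 2 for 418 (60.5%). A further 127 (18.4%) had a partner in neither thresholded list, against 18.2% of all pooled peaks. In the longer ranked lists, which keep peaks below the authors' threshold, 678 members (98.1%) overlapped a peak of both replicates.

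Support followed signal steeply. The members were cut by signal into 4 groups of nearly equal size. In the strongest group 170 of 173 had partners in both replicates (98.3%), in the second 126 of 173 (72.8%), in the third 33 of 173 (19.1%) and in the weakest 14 of 172 (8.14%). The share with a partner in neither replicate was 0% in both stronger groups, 17.9% in the third and 55.8% in the weakest. Pooled signal and the replicates' lists come from the same reads, so the steps are a description. With the whole pooled list cut into 4 in the same way, the shares of members and of all pooled peaks were 98.8% against 98.3%, 74.9% against 76.3%, 19.2% against 20.4% and 8.19% against 9.34%. For the 678 members found in both ranked lists, signal in the replicates had Spearman's rho of 0.675 across peaks, against 0.725 for the 8322 such peaks of the whole pooled list. These points share libraries, so no p is given.

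**Figure D2:**
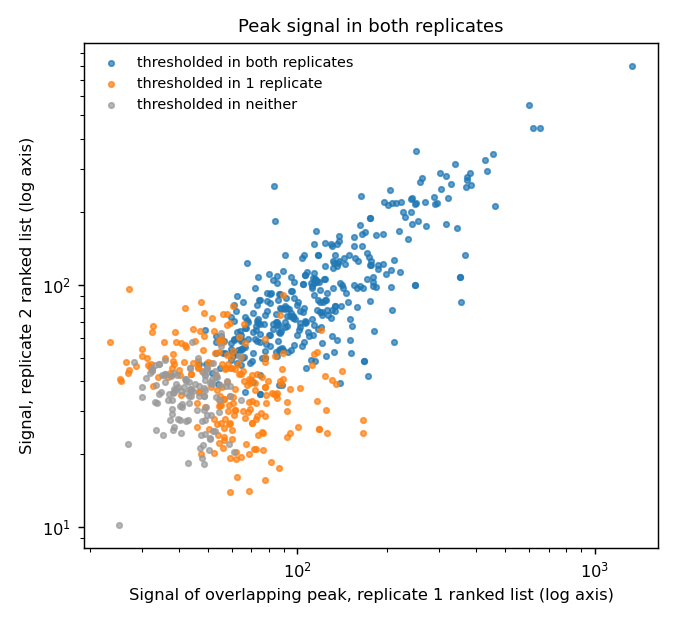
Signal of each gene-proximal intergenic peak in replicate 1 and replicate 2 (overlapping peaks of the ranked lists, log axes, authors' units) for the 678 members present in both. Colour marks members with a thresholded partner in both replicates, in 1 or in neither. Members with both partners fill the upper right, members with neither the lower left, and rho is 0.675.

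Some members are the flank of another peak. A stronger pooled peak overlapped 35 members (5.07%), against 5.66% of all pooled peaks, and 22 of the 23 members with signal under 40 were of this kind. The limit of 40 was chosen after the values were seen. At dpp, for example, the member with signal of 3.80 overlapped one of 362, and both met the same peak in each replicate. The 489 members with a replicate 1 partner therefore drew on 470 distinct replicate 1 peaks, and the 418 with a replicate 2 partner drew on 405.

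The DNA at the member summits was rich in A and T over a narrow stretch. The windows of 50 bp on either side of the summit held 35.1% G and C, against 40.4% and 41.1% in windows of the same length centred 500 bp to the left and right. The distal intergenic summits held 33.4% and all pooled summits 36.9%. In bins of 50 bp the members fell to 34.8% just left of the summit, with 45.1% at 175 bp to the left and 42.0% at 975 bp to the left. The rise on the shoulders was present in the distal class (46.4%) and in all pooled peaks (44.4%) at the same offset. Among 6-letter words, counted with their reverse complements, those of A and T had the largest differences between windows. AATATA was in 23.3% of member summit windows against 12.2% of left windows, where all pooled peaks had 19.5% against 11.9%. These come from a search of 2080 words and are given without a test.

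**Figure D3:**
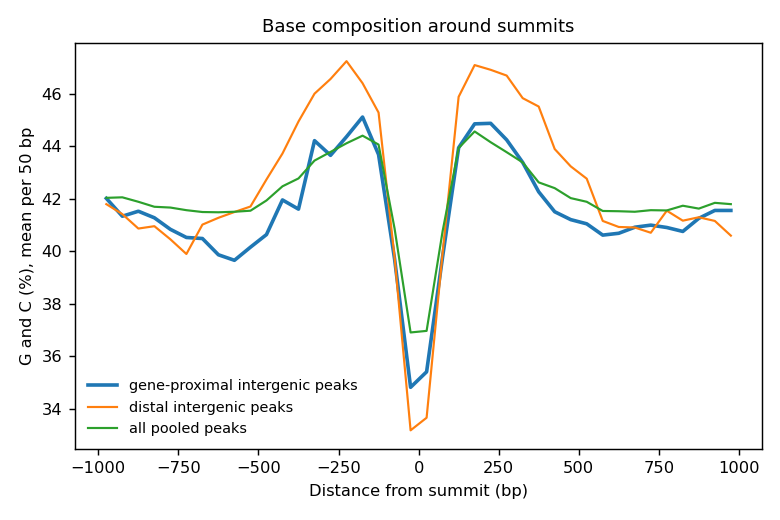
Mean G and C content (%) in bins of 50 bp by distance from the summit (bp) for gene-proximal intergenic peaks, distal intergenic peaks and all pooled peaks. The members show a trough of 34.8% next to the summit and shoulders of 45.1% at 175 bp, with distal peaks lower at the summit and all pooled peaks higher.

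The homeodomain palindrome was found at a small share of the member summits and showed no difference past the test. TAATTA, which is its own reverse complement, was in 55 summit windows (7.96%, 6.05 to 10.2) and in 58 of the windows 500 bp to the left (8.39%), an exact McNemar p of 0.845, two-sided. In the distal class the shares were 9.74% at the summit and 5.88% to the left (same test, adjusted p 0.1765). Over all pooled peaks they were 7.97% and 6.538%, with an exact McNemar p of 0.000368, not adjusted. The shorter core TAAT, on either strand, was in 510 member windows (73.8%), against 66.7% to the left and 63.4% to the right. In the distal class it was in 78.5% of summit windows, against 62.5% to the left and 62.0% to the right, and over all pooled peaks in 66.6%, against 61.1% and 60.4%. The left and right windows of the members thus also held it more often than those of all pooled peaks. G and C content was also lowest at the summit, by the values above, and its part in these shares was not tested.

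None of the 19 words passed the test at the member summits. The homeodomain words were TAATTA, the Bicoid word TAATCC, the Caudal word TTTATG, the Homothorax word TGACAG, and TAAT followed by ATTA with a gap of 2 or of 3 bases. Words of other factors were GAGAGAG for the Trl protein and a set of E-boxes, which were CACCTG of the Snail family, CAGCTG of proneural proteins and CATATG of Twist. Zelda was given the word CAGGTAG and the Serpent family the word GATAAG. Grainyhead was given AACCGG, and the Fos and Jun proteins were given TGAGTCA. The rest were CATTCCA for Scalloped, CCGGAAG for ETS factors, the core promoter word GGTCACAC, TATCGATA for DREF and ACAATAG for Sox factors. Each was searched on both strands. By the exact McNemar test with Benjamini-Hochberg adjustment over 95 tests (19 words in 5 position classes), 0 of 19 passed at 0.05, 0 had an unadjusted p under 0.05, and the smallest was 0.169 (adjusted 0.641). Of all 95 tests, 3.16% were called higher at summits and 4.21% lower, all of them in the promoter and intron classes. Among the members 9 words were more frequent at the summit, 8 less frequent and 2 equal. The TAAT and ATTA pair with a gap of 3, shown above at Atet and Gr89a, was in 12 member windows (1.74%) and 6 left windows (0.868%), with an exact p of 0.238. All pooled peaks had 1.39% and 0.758%, with an exact McNemar p of 9.1e-05, not adjusted. In the intron class this pair was called higher at summits (exact McNemar test, adjusted p 0.0276). The member counts are small, so the lack of a call there is not read as an absence.

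Left windows are not neutral sequence: 533 of the 691 were themselves gene-proximal intergenic, 106 lay at promoters and 32 in exons. Split by signal at the median of the members, TAATTA was in 34 of the stronger (9.86%) and 21 of the weaker members (6.07%). In the same order TAATCC had 2.03% and 1.16%, while TTTATG ran the other way with 13.0% and 14.7%. The spaced pair was level, with 0.87% and 0.867% for a gap of 2 and 1.74% and 1.73% for a gap of 3. The GAGA factor word GAGAGAG was in 2 of the stronger and 13 of the weaker members. None of these splits was tested, and they hold no left windows. Among members in the 4221 strongest pooled peaks, TAATTA was 1.46 points higher at the summit than to the left. It did not pass the test there.

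The members had 533 nearest coding genes of 13945, so that 3.82% of coding genes were nearest to at least 1. Of these, 413 genes had 1 member, 91 had 2, 22 had 3, 5 had 4 and 2 had 5. A promoter peak was also present at 181 of the 533 genes (34.0%), against 2911 of all 13945 coding genes (20.9%). By peaks, 231 members (33.4%) had a nearest gene with a promoter peak, against 27.9% of distal intergenic peaks.

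The genes with most members were CG7557 and Gr93a, with 5 each. At CG7557, signal before the start was 191 at 2572 bp and 98.1 at 889 bp, and after it 349 at 2298 bp, 196 at 3364 bp and 461 at 3971 bp. All but the peak at 889 bp were found in both replicates. At Gr93a, a gustatory receptor gene, the members had 96.7, 289, 56.7, 97.0 and 16.1, and the last of these overlapped the one before it. At CG13898 the members had 541, 535, 152 and 130, and the first 3 were in both replicates. The Hedgehog receptor gene ptc had 4 members before its start, with signal of 54.2 at 4707 bp, 106 at 3699 bp, 216 at 3081 bp and 72.3 at 1629 bp. Those at 3699 and 3081 bp were in both replicates, and the window at 3081 bp held TAATTA. At vers the members had 74.4, 98.3, 295 and 157, and at hng3 146, 90.1, 180 and 203, all in order along the gene's own direction. At CG43759 an overlapping pair stood at each of 2 places, with 91.7 and 11.2 at the farther and 213 and 122 at the nearer. The densest stretches of 0.1 Mb held 10 members each, at 11.4 to 11.5 Mb of 3L around CG7557 and at 21.8 to 21.9 Mb of 3R around Gr93a.

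**Figure D4:**
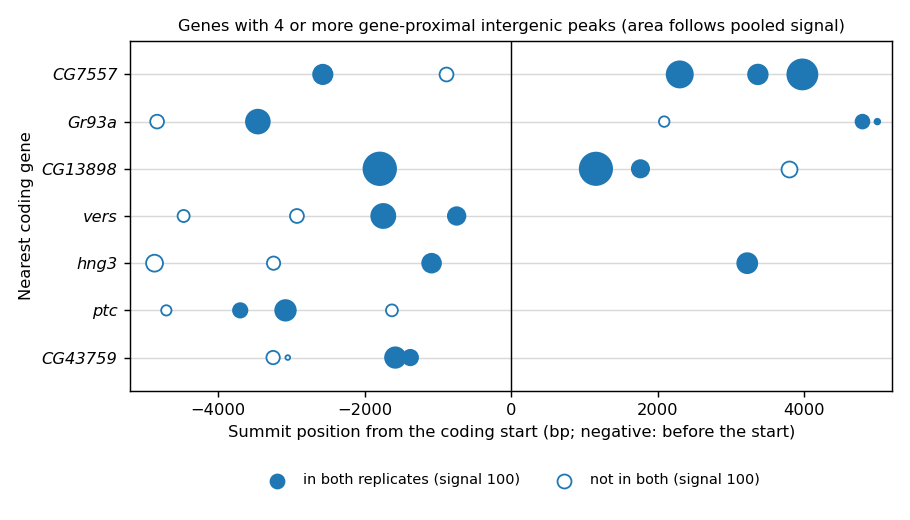
Position of the members (bp from the coding start, negative before it) at the 7 genes with at least 4 of them, with marker area in proportion to pooled signal and filled markers for peaks found in both replicates. The strongest markers are the pair of 541 and 535 at CG13898 and that of 461 at CG7557.

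No member had Drgx as its nearest coding gene. A member lay between Drgx and for, the gene of a cGMP-dependent protein kinase, at 2L:3657622-3658005. Its summit was 861 bp before the start of for, with pooled signal of 236 (rank 1614), replicate 1 at 140 and replicate 2 at 81.6. Of the 24 paired-like homeobox genes, 1 had a member, at 12.1 per Mb of eligible sequence in the pooled list. In either replicate's own list, 0 peaks nearest to these genes had a summit that itself met the rule. The pooled member was at PHDP, 543 bp before the start, with signal of 53.6. It overlapped a replicate 2 peak of 53.7 and no thresholded peak in replicate 1.

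Counts by gene list cover only the genes matched to the annotation. They are read against the 3.82% of all coding genes and were not tested as sets. The lists differ in how much nearby intergenic sequence they have, so members per Mb of that sequence are given beside the counts of lists with a member, for the pooled list, replicate 1 and replicate 2 in that order. Over all members these were 54.7, 40.3 and 35.7 per Mb. A replicate's density counts the peaks of its own list whose own summit met the rule, not the partners of pooled members. Most lists rest on few members in a small space. Neural homeobox genes had 4 of 34 (44.6, 35.7 and 44.6 per Mb): ct above, NK7.1 (284 pooled, 208 in replicate 1, 78.7 in replicate 2), Dll, the distal limb gene (168, 96.6 and 74.4), and so, an eye gene (69.3, replicate 2 only, 50.9). Proneural and neuroblast genes had 4 of 35 (50.3, 37.7 and 50.3 per Mb), led by klu, a zinc finger gene, with 514, 295 and 217, and wor, a Snail family gene of neuroblasts, with 250, 131 and 117. The others were E(spl)mbeta-HLH, a Notch-responsive repressor gene (127, 67.2 and 66.5), and sna. Axon guidance genes had 6 of 45 (93.7, 46.8 and 35.1 per Mb), led by trn (137, replicate 1 only, 102), Sema5c, a semaphorin gene (124, replicate 2 only, 75.7), and robo2, a Slit receptor gene (107, replicate 1 only, 61.6). None of those 3 had a partner in both replicates. Genes of neuronal function had 3 of 48 (50.01, 33.3 and 16.7 per Mb), AstA, a neuropeptide gene (115.1), Ddc, the dopa decarboxylase gene (84.8), and fne, an elav family gene (71.8). Of 31 genes for dpr and DIP receptors 1 had a member (14.4, 14.4 and 14.4 per Mb), dpr20 (402, 164 and 233).

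Signalling pathway genes had members at ligands, receptors and inhibitors. Among BMP genes 3 of 19 had one (372, 372 and 74.4 per Mb): the ligand dpp 1728 bp before the start (362 pooled, 175 in replicate 1, 189 in replicate 2), the extracellular antagonist sog (86.2, in neither replicate) and the inhibitory Smad gene Dad (79.0 and 73.3). The BMP densities rested on 5 members in the pooled list and 1 in that of replicate 2. Of the 5, the 2 at dpp overlap each other, as given above, so 1 site is counted 2 times. Segment polarity and Wnt genes had 3 of 22 (102, 43.9 and 43.9 per Mb), the Wnt receptor fz (221, replicate 1 only, 167), ptc above and the ligand hh (84.0, in neither replicate). EGF and FGF receptor pathway genes had 3 of 28 matched (74.5, 74.5 and 49.7 per Mb): the ETS repressor gene aop (297, 186 and 121), the ETS activator gene pnt (146, 72.0 and 97.0) and the EGF receptor inhibitor kek1 (88.2, replicate 1 only, 51.1). The member at Raf, listed under the unmatched name phl, is not counted (131, 63.9 and 64.7). The Notch-modifying glycosyltransferase gene fng had 3 members, with 269, 156 and 67.3. It was the only one of the 15 matched genes of its list with a member (114, 114 and 76.0 per Mb). The listed symbol malpha was not matched, so the member at E(spl)malpha-BFM is not counted (454 pooled, 270 in replicate 1, 175 in replicate 2). Ecdysone response genes had 4 of 22 matched (142, 198.5 and 56.7 per Mb): the nuclear receptor gene Hr38 (150, 84.6 and 76.1), shd, which makes the active hormone (137, 85.2 and 50.6), and Eip78C and Eip93F at 78.3 and 71.0. The stronger member at Ldh, listed under the unmatched name ImpL3, is not counted (240, 118 and 103).

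Mesoderm and muscle genes had 6 of 33 (99.4, 56.8 and 71.0 per Mb). They were how, an RNA-binding protein gene of muscle and tendon (415 pooled, 229 in replicate 1, 190 in replicate 2), sls, the titin-related gene (277, 138 and 152), the actin genes Act87E (215, 112 and 96.8) and Act57B (125, 86.9 and 38.5), the myoblast regulator lmd (113) and sna (77.7). Those of how, sls and Act57B and the stronger of 2 at Act87E were found in both replicates. Stress and heat shock genes had 2 of 24 (156, 156 and 104 per Mb), the co-chaperone gene stv (513, 367 and 133) and the Fos gene kay (203, 126 and 74.7). Endoderm, trachea and epidermis genes had 2 of 23 matched (84.5, 84.5 and 56.3 per Mb), the GATA factor gene srp (229, 134 and 81.4) and the chitin deacetylase gene verm (166, 87.2 and 79.8). A member at peb, listed under the unmatched name hnt, is not counted in this list (116, 70.1 and 48.6). Of the 3 pooled members of that list, the 2 at srp overlap and met the same peak in each replicate. Chromatin and cell cycle genes had 4 of 39 (250, 200 and 200 per Mb): CycB above, the Polycomb group genes ph-d (216, 84.2 and 182) and Psc (88.4, replicate 1 only, 60.3), and psq (114 and 89.4). Pair-rule genes had 1 of 9 matched (19.98, 19.98 and 0 per Mb), slp2 (121.5, replicate 1 only, 73.3). The listed name hairy was not matched to its annotated symbol hry. Members of 206 and 136 at hry, each found in both replicates, are therefore not counted. Glial genes had 1 of 17 (42.5, 42.5 and 42.5 per Mb), pnt. RpS23 (140, 87.9 and 64.4) was the only one of 81 cytoplasmic ribosomal protein genes (19.7, 19.7 and 19.7 per Mb). Hox (11 genes), gap and maternal patterning (12), neuropeptide and hormone (23) and mitochondrial ribosomal protein genes (73) had 0. Their eligible sequence was only 0.0265, 0.0456, 0.00892 and 0.00697 Mb in that order. Few members could fall there, so these counts are not read as an absence.

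Cuticle protein and chemosensory receptor genes had members but few promoter peaks. Of 70 Cpr genes, which encode chitin-binding cuticle proteins, 11 (15.7%, 8.11 to 26.4) had a member, while 2.86% had a promoter peak against 20.9% of coding genes. Pooled density beside them was 108 members per Mb, with 89.8 for replicate 1 and 53.9 for replicate 2. The strongest was at Cpr62Bc (289 pooled, 160 in replicate 1, 125 in replicate 2), then Cpr51A (171, 105 and 58.0) and Cpr72Eb (150, 82.4 and 69.0). Of 179 chemosensory receptor genes, 11 (6.15%, 3.11 to 10.7) had a total of 21 members, at 66.6 per Mb, or 44.4 in replicate 1 and 38.0 in replicate 2. Of these 21, 2 at Gr93a overlap each other, as given above, and met the same peak in each replicate. Just 1.12% of the chemosensory receptor genes had a promoter peak. The strongest member was at the olfactory receptor gene Or45b (426, 242 and 199), then at Gr93d (334, 248 and 100) and Gr93a. None of the 11 genes of either list that had a member had a promoter peak.

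**Figure D5:**
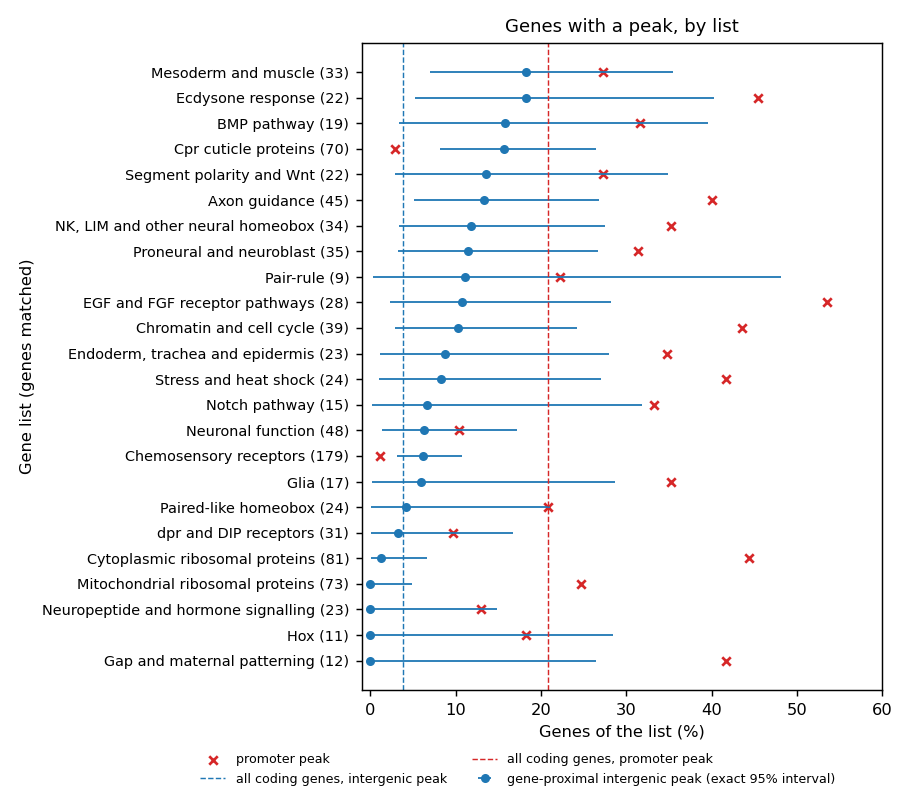
Share of the matched genes of each list (%) that were nearest to at least 1 gene-proximal intergenic peak, with exact 95% intervals, and share with a promoter peak. Dashed lines mark the same shares over all coding genes, 3.82% and 20.9%. Cpr genes stand at 15.7% with a member and 2.86% with a promoter peak, while cytoplasmic ribosomal protein genes stand at 1.23% and 44.4%.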

How the data were processed

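Peaks were called from 2 ChIP-seq libraries of Drgx-eGFP embryos. The authors deposited peak lists on dm6, thresholded by the irreproducible discovery rate (IDR), which scores how well peak ranks match between lists: 1 for each replicate, 1 pooled, and 1 called conservative, with longer ranked lists. The deposited lists give a signal value for each peak; its scale is not known: the sources used here do not state it, nor the aligner and peak caller. The lists hold no counts, so depth is unknown. The members and gene lists were chosen with earlier results of these data known.

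Python 3.11.15, pandas 2.3.3, NumPy 2.4.6 and SciPy 1.17.1 were used. Genes came from Ensembl release 115, without transposable elements, and sequence from the RefSeq Release 6 assembly, whose coordinates are those of dm6. A word was scored as present or absent within 50 bp of the summit. The word test was tested on simulated data, in which summit and control windows had the same base composition. The real windows differ in it, so that run cannot show how the test behaves under such a difference. Intervals are exact binomial (Clopper-Pearson). Named were the 20 strongest members with a partner in both replicates, genes nearest to at least 4 members, up to 3 genes of each list by signal, members next to each limit, and Drgx. Further genes of some lists were named after their values were seen. The 24 gene lists held 543 symbols, of which 29 were not matched to the annotation. The ribosomal protein, chemosensory receptor and Cpr lists were not built from such symbols. Some unmatched symbols are other names of annotated genes that had members. Among them are hairy (hry), malpha (E(spl)malpha-BFM), phl (Raf), ImpL3 (Ldh) and hnt (peb). Counts and densities by list leave these genes out. Results were recomputed with the conservative list, with the list of either replicate, with other distance limits, protein-coding genes alone, stricter overlap, the 4221 strongest pooled peaks and other windows. Added after the data were seen were transposable elements counted as genes and members that overlap no stronger peak.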

Additional observations from a re-analysis of the deposited data

How the results depend on the processing

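The count of members moved past 1.5 times the 691 reported with a coding start within 2000 bp (364) and in the list of replicate 2 alone (451). In the list of replicate 1 alone it was 510, within 1.5 times. The share with partners in both replicates, 49.6%, was 56.1% in the conservative list, 36.5% with an overlap of at least 0.5 of both peaks and 86.0% among the 4221 strongest pooled peaks, where the whole of that set had 87.3%. In one replicate's list alone, the share overlapping the other replicate ran between 68.0% and 75.4%. The median signal percentile, 49.6, was 50.2 in the conservative list and between 48.9 and 49.6 in single replicates. The cause was not tested. No word passed at the member summits under any alternative run. No paired analysis was possible because both replicates belong to 1 group. Depth is unknown, so what sets the replicates' numbers of peaks cannot be told from the files.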
